A study of Mus musculus with 4 samples.

Results

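The genes described are 44 genes of S phase and DNA replication, followed in sorted mouse blood progenitors with and without the transcription factors STAT5A and STAT5B. They were chosen by symbol from a fixed list, and all 44 were found among the 31053 genes of the deposited tables. By role they comprise 8 genes of origin licensing and the MCM helicase, 4 of helicase activation, 8 of polymerases, clamp and clamp loaders, 3 of flap removal and ligation, 5 of nucleotide supply, 7 of fork protection, repair and checkpoint, 7 of chromatin and histone supply, and 2 E-type cyclins. The cells are KLS cells, lineage-negative bone marrow cells sorted for c-Kit and Sca-1 on the surface, a fraction that holds hematopoietic stem cells and multipotent progenitors. In the STAT5 KO group the Stat5ab locus is floxed and Vav1-Cre/+ is present, a recombinase under a promoter of the blood lineage. The control group has Vav1-Cre/+ without the floxed locus, so the recombinase is common to both groups. The labels give 8 to 12 weeks of age and 4 mice, without saying whether that is the number per genotype, and name no single mouse.

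Cells license origins in G1 by loading the MCM2-7 helicase, and fire them in S phase once CDC45 and the GINS complex have joined it. Polymerases then copy both strands on the sliding clamp PCNA, while nucleotide enzymes supply precursors and histone chaperones repack the new DNA. Many of these genes are transcribed under E2F factors as cells leave quiescence, which is why their transcripts are widely used to read the cell cycle. Most hematopoietic stem cells rest, and STAT5 transmits signals of cytokines that control their quiescence and survival.

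Each group is 1 library, so there is no replicate and no test. Every interval given is an exact 95% interval that covers counting error only: of UMIs for levels and ratios, of cells for shares of cells. None covers differences between mice or preparations. Intervals of UMIs also leave out which cells were sampled, since they treat pooled UMIs as independent. Member UMIs differed widely between cells, so such intervals are too narrow for that. The control library held 3747 barcodes and 55138419 UMIs (unique molecular identifiers, 1 per captured transcript), and the STAT5 KO library held 7511 barcodes and 82466835 UMIs. After filtering and removal of barcodes that also occur in either stromal library of the series, 3091 control and 6726 STAT5 KO cells were kept, at medians of 15121 and 10082 UMIs. The removed barcodes numbered 363 and 261 among cells that had passed the other filters, with medians of 709 and 663 UMIs. The kept sets of cells shared 11 barcodes with each other. Stat5a was at 68.5 CPM (counts of a gene per 1000000 UMIs) in control against 6.76 CPM in STAT5 KO, and Stat5b at 60.8 and 4.50 CPM, in the direction of the labels. Mitochondrial genes took 4.39% of UMIs in control against 2.94% in STAT5 KO. Among lists of markers of other cell types, the summed level was 140.5 CPM in control against 158 CPM in STAT5 KO for 7 erythroid genes. It was 160.0 and 183 CPM for 4 mast and basophil genes (Cpa3, Ms4a2, Mcpt8 and Gata2), and 1.21 and 1.36 CPM for 5 stromal genes, with Pdgfra at 0 in both. The sums are not split by gene, and progenitors can hold some of these transcripts, so they do not count foreign cells.

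Promoters of the members are shown because many E2F-regulated promoters carry short E2F-type words. RefSeq promoters (GRCm38.p6, 250 bases before to 50 after the start) were found for 34 of the 44 members. The words TTTCCCGC, TTTCGCGC, TTTGCCGC and TTTGGCGC were searched on both strands, and neighbouring words may overlap. At least 1 word lay in a promoter of 15 of these 34 genes (44.1%), against 704 of 27025 genes in the whole table (2.61%). Counted by promoter, the shares were 37.5% of 40 and 2.26% of 32851. Among the 8 members that will be described as higher in STAT5 KO, 5 held a word, and among the other 26 matched members 10 did. A match is a string of letters and shows no binding, and E2F binding was not measured here. The 150 bases before the start are printed for 3 members that were higher in STAT5 KO and for Mcm6, which holds 3 words. Mcm6 is a helicase subunit at near equal levels in both libraries when summed over all kept cells without thinning. Each sequence runs 5′ to 3′ on the strand of the gene, with words in capitals.
Pola1, chrX:93632156-93632305, minus strand: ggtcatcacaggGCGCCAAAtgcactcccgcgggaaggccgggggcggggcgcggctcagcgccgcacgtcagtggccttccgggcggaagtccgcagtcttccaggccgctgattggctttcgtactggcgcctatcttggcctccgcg
Hells, chr19:38930840-38930989, plus strand: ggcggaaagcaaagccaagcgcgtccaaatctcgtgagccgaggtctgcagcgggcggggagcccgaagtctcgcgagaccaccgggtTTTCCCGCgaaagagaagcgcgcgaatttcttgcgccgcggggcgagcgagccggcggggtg
Cdca7, chr2:72476069-72476218, plus strand: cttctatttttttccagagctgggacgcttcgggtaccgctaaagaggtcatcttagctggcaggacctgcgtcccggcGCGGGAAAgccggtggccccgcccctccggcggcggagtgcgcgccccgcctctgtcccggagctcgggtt
Mcm6, chr1:128359706-128359855, minus strand: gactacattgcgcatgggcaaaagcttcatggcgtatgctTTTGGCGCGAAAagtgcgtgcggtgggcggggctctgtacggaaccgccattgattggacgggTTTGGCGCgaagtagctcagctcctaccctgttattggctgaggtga
The words of Pola1 and Cdca7 read on the opposite strand to the gene, and in Mcm6 a word on each strand overlaps to form the longer run of capitals. The starts are those of RefSeq, and for Hells and Cdca7 they lie inside the gene as GENCODE draws it.

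Replication genes were slightly more abundant in the STAT5 KO library. Summed over the 44 members, the level was 4670 CPM (4651 to 4689) in control against 5177 CPM (5161 to 5193) in STAT5 KO, a 1.11-fold ratio and a log2 ratio of 0.15 (0.14 to 0.16). In such sums fewer cells with replication transcripts and fewer transcripts per cell cannot be told apart, which the counts per cell further on address. The ratio was above 1 for 35 members, with a counting interval above 1 for 31, below 1 for 6 and across 1 for 7. The 6 are Prim1, Rfc2, Dscc1, Fen1, Tipin and Slbp, whose intervals no longer lay below 1 after thinning of cells to equal depth. A member was called higher or lower when its levels, with 1 CPM added, were at least 0.32 apart on the log2 scale. By that rule 8 of 44 members (18.2%) were higher in STAT5 KO and 0 lower, where 5.95% of the 12074 genes with at least 100 UMIs were higher and 10.4% lower. The median log2 ratio was 0.17 over the members and -0.01 over all these genes. The 8 members are Wdr76, Pola1, Nasp, Hells, Cdca7, Uhrf1, Dut and Ubr7, and 5 of them belong to chromatin and histone supply. Ubr7 lay just past the limit, and Gmnn and Ccne2 just short of it, with log2 ratios of 0.33, 0.31 and 0.32 before 1 CPM was added.

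On GRCm38, with GENCODE M21 gene bounds, Wdr76 (ENSMUSG00000027242) spans chromosome 2 from 121506723 to 121544860, Cdca7 (ENSMUSG00000055612) chromosome 2 from 72476159 to 72486893 and Dut (ENSMUSG00000027203) chromosome 2 from 125247190 to 125258608. Hells (ENSMUSG00000025001) lies on chromosome 19 from 38930915 to 38971051, Uhrf1 (ENSMUSG00000001228) on chromosome 17 from 56303321 to 56323486 and Ubr7 (ENSMUSG00000041712) on chromosome 12 from 102757967 to 102777707. On the minus strand lie Nasp (ENSMUSG00000028693), on chromosome 4 from 116601052 to 116627941, and Pola1 (ENSMUSG00000006678), on chromosome X from 93304767 to 93632155. The called members are thus spread over 6 chromosomes.

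**Figure D1:**
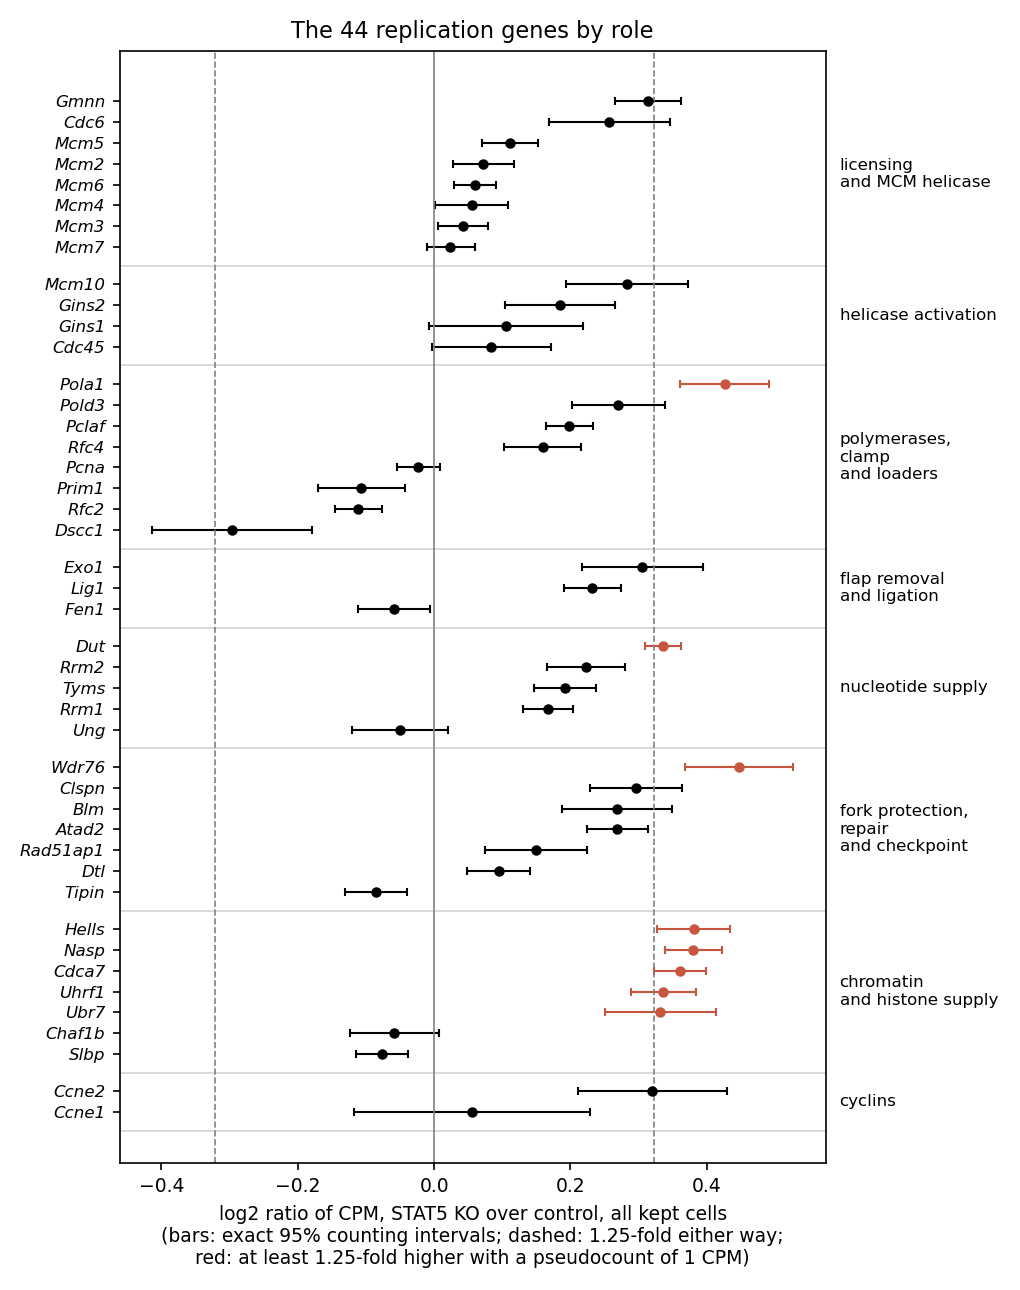
Log2 ratio of CPM, STAT5 KO over control, for each of the 44 members over all kept KLS cells, grouped by role, with exact 95% counting intervals; dashed lines mark the limit of a call and red marks the 8 members called higher. The MCM subunits and Pcna lie close to 0, and the red points sit mostly among chromatin and histone supply genes.

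The size of this difference depended on which cells were kept. Cells with over 5% mitochondrial UMIs made up 20.2% of control and 3.06% of STAT5 KO cells, and in control these 624 cells stood at 3151 CPM, below the 4886 CPM of the others. Keeping only cells with at most 5% lowered the log2 ratio from 0.15 to 0.09. The stricter filter also asks for 1000 genes and keeps 79.7% of control and 96.8% of STAT5 KO cells. Under it, 2 members were called higher (Wdr76 and Pola1) and 1 lower (Dscc1). The share of all genes called under that filter was not computed. The ratio of each of the 8 members stayed positive under all 8 other settings for single members, between 0.26 (Uhrf1) and 0.59 (Wdr76) on the log2 scale. The part of mitochondrial content in the difference was not tested.

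Counted cell by cell, the STAT5 KO library had a smaller share of cells with few replication transcripts, by a margin that shrank without cells of high mitochondrial content. Every cell with at least 4600 UMIs was thinned at random to 4600, which left out 27 control and 658 STAT5 KO cells (0.874% and 9.78% of those kept). The cells left out stood at 2552 and 3817 CPM of members, below their libraries, so values at equal depth lack more low cells of STAT5 KO than of control. At that depth a control cell held a median of 14 member UMIs, with 4, 7, 30 and 43 at the 10th, 25th, 75th and 90th percentiles. A STAT5 KO cell held a median of 21, with 5, 11, 34 and 44 at the same percentiles. The libraries overlapped throughout, and they were nearly level at the 90th percentile. With at most 5% mitochondrial UMIs the medians were 17 and 21 and the 25th percentiles 8 and 11, and control cells above 5% had a median of 7.

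**Figure D2:**
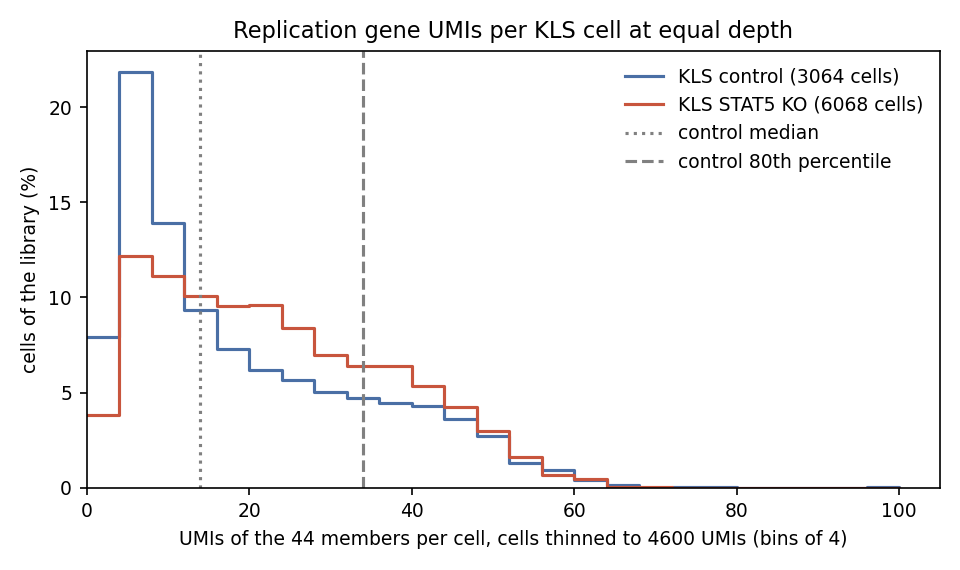
Percentage of cells of each library (vertical axis) by UMIs of the 44 members per cell at 4600 UMIs (horizontal axis, bins of 4), for 3064 control and 6068 STAT5 KO cells; grey lines mark the control median (14) and 80th percentile (34). The control curve is higher at the left, the STAT5 KO curve in the middle range, and the curves meet at the right.

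Cells at or above the control median made up 50.9% of control (49.1 to 52.7%) and 67.8% of STAT5 KO cells (66.6 to 68.9%). With at most 5% mitochondrial UMIs the same shares were 57.6% (55.6 to 59.6%) and 67.7% (66.5 to 68.9%). Cells at or above the control 80th percentile of 34 UMIs, called rich here, made up 20.1% of control (18.7 to 21.5%) and 25.02% of STAT5 KO (23.9 to 26.1%), a difference of 4.94 percentage points. Rich cells are a range on a continuous scale and not a cell type, and 172 control and 497 STAT5 KO cells lay within 2 UMIs of the limit. The difference was 0.99 points at the 90th percentile, 1.18 points with at most 5% mitochondrial UMIs and 0.34 points under the stricter filter; the counting interval of each of these 3 differences includes 0. It was 2.91 points with no doublets left out. No direction is therefore given for the richest cells. Rich cells were also deeper before thinning, with a median of 17306 UMIs against 13197 in other control cells, and 11818 against 10072 in STAT5 KO. Among cells of 5000 to 15000 UMIs in both libraries the summed log2 ratio was 0.63, but that range takes 48.3% of control and 64.1% of STAT5 KO cells, and 50.3% of control cells lie above it.

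Members were compared between the libraries below and above the limit of 34 UMIs, at equal depth. In cells below it the summed level was 2807 CPM in control against 3523 CPM in STAT5 KO, a log2 ratio of 0.33 (0.31 to 0.35). In rich cells it was 9559 CPM in control against 9295 CPM in STAT5 KO, a log2 ratio of -0.04 (-0.06 to -0.02). Since the limit is set on the members' own sum, these sums and the ratios of single members are descriptions, and with the sum nearly level in rich cells some members must lie above 0 and others below. Below the limit, 38 of 44 members had an interval above 0, and Chaf1b alone had one below 0, at -0.16. The comparison was not repeated without cells of over 5% mitochondrial UMIs, which in control had a median of 7 member UMIs. The share of all genes with such intervals was not computed in either range, so these counts are not read as a result about the members. Among rich cells 5 members had an interval above 0, namely Wdr76, Nasp, Uhrf1, Hells and Cdca7. Their log2 ratios in rich cells ran from 0.13 for Cdca7 to 0.28 for Wdr76. Lower in rich STAT5 KO cells were 9 members (Mcm3, Mcm7, Pcna, Pclaf, Dscc1, Fen1, Ung, Tipin and Slbp), of which Fen1 was lowest at -0.40 and Pcna stood at -0.25.

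**Figure D3:**
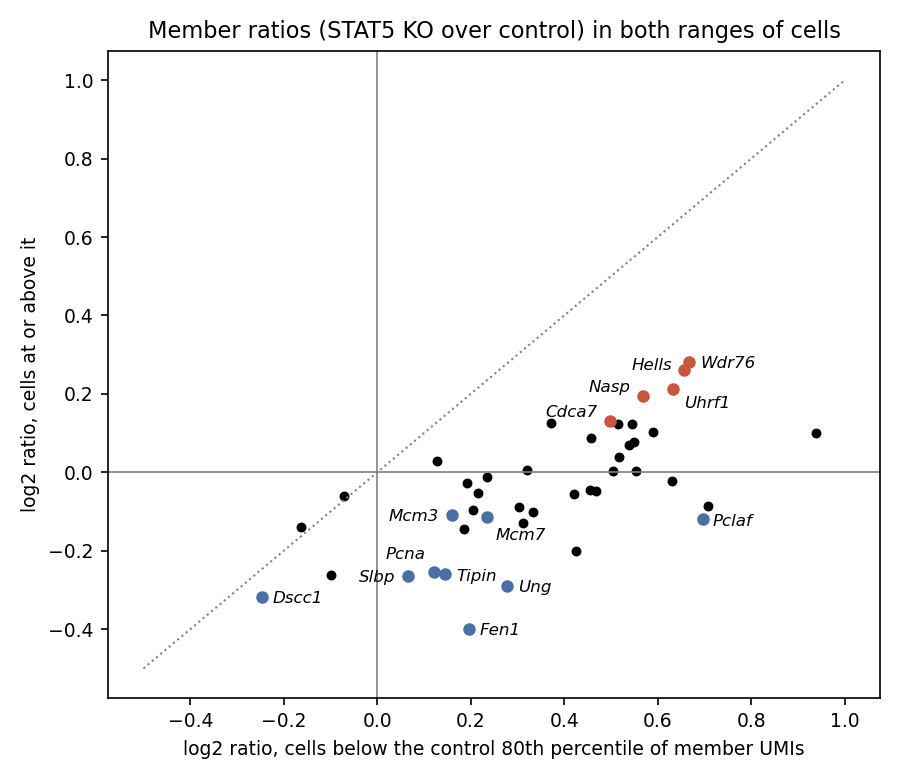
Log2 ratio of CPM, STAT5 KO over control, of each member in cells below the control 80th percentile of member UMIs (horizontal axis) against that in cells at or above it (vertical axis), at equal depth. Coloured and named points have a counting interval that excludes 0 in rich cells, red above and blue below; most points lie right of 0 and under the dotted line of equal ratios.

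Genes of origin licensing and the MCM helicase held 25.1% of member UMIs in control against 24.0% in STAT5 KO. Summed over all kept cells without thinning, the 6 helicase subunits were near equal between the libraries. Mcm6, the most abundant of the helicase subunits, was at 275 CPM (270.2 to 279) in control against 286 CPM (283 to 290.2) in STAT5 KO, a log2 ratio of 0.06. Mcm7 was at 205 and 208 CPM, a log2 ratio of 0.02 (-0.01 to 0.06). Mcm3 was at 191 and 197 CPM, a log2 ratio of 0.04 (0.01 to 0.08). Mcm2, Mcm4 and Mcm5, which complete the helicase ring, stood between 0.05 and 0.11. Further from 0 were Cdc6, which loads the helicase onto origins, at 0.26 (0.17 to 0.35), and Gmnn, encoding geminin, which blocks loading again after origins have fired, at 0.31 (0.27 to 0.36). After thinning, the 6 helicase subunits ran from 0.13 (Mcm3 and Mcm4) to 0.22 (Mcm5), each with an interval above 0, and Cdc6 and Gmnn stood at 0.29 and 0.42. The 4 genes of helicase activation were less abundant, at 20.3 to 38.7 CPM in control. Their log2 ratios were 0.08 for Cdc45 and 0.11 for the GINS subunit Gins1, both with intervals across 0, then 0.18 for Gins2 and 0.28 for Mcm10.

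Summed without thinning, genes of polymerases, clamp and clamp loaders went in both directions. Pola1, the catalytic subunit of DNA polymerase alpha, which starts each new strand, was at 56.5 CPM (54.4 to 58.6) in control against 75.8 CPM (73.9 to 77.8) in STAT5 KO, a log2 ratio of 0.43 (0.36 to 0.49). Prim1, the primase subunit of the same complex, went the other way, from 67.0 to 62.2 CPM, a log2 ratio of -0.11 (-0.17 to -0.04). That of Prim1 was 0.16 after thinning and 0.01 when single-cell CPM was averaged. Partner subunits of 1 complex thus did not share a ratio.

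Pcna, the sliding clamp, was at 272 CPM (268 to 277) in control against 268 CPM (264 to 272) in STAT5 KO, a log2 ratio of -0.02 (-0.05 to 0.01). Its binding partner Pclaf was at 206 CPM (202 to 210.0) and 236 CPM (233 to 239.8), a log2 ratio of 0.20 (0.16 to 0.23). Rfc2, a subunit of the loader that places the clamp, was at 222 CPM (218 to 226) and 205 CPM (202 to 209). Its log2 ratio was -0.11 (-0.15 to -0.08), and -0.01 (-0.08 to 0.05) after thinning. The lowest ratio of all members was that of Dscc1, part of an alternative clamp loader, at 21.0 and 17.1 CPM. Its log2 ratio was -0.30 (-0.41 to -0.18), and -0.14 (-0.36 to 0.09) after thinning. Rfc4 at 0.16 and Pold3, a subunit of polymerase delta, at 0.27 were on the other side. Among genes that finish the lagging strand, the flap nuclease gene Fen1 was at -0.06, and at 0.02 after thinning, whereas the DNA ligase Lig1 was at 0.23 and the exonuclease Exo1 at 0.31.

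Of the 5 genes of nucleotide supply 1 was called higher, Dut. Their sum was 782 CPM in control against 924 CPM in STAT5 KO, a log2 ratio of 0.24, and without Dut it was 438 against 489 CPM, a log2 ratio of 0.16 (0.14 to 0.18). Dut, whose enzyme removes dUTP so that uracil is kept out of DNA, was the most abundant member, at 344 CPM (339 to 349.6) in control against 435 CPM (430.0 to 439) in STAT5 KO, a log2 ratio of 0.34 (0.31 to 0.36). At equal depth 63.7% of control and 74.8% of STAT5 KO cells held a Dut UMI, and 83.7% and 88.0% without thinning. The ribonucleotide reductase subunits Rrm1 and Rrm2 were at 0.17 and 0.22, and thymidylate synthase Tyms at 0.19. Ung, which cuts uracil out of DNA, was at -0.05 (-0.12 to 0.02). Without Dut the summed log2 ratio of all members was 0.13.

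Fork protection, repair and checkpoint genes held the highest ratio of all. Wdr76, a WD-repeat gene linked to DNA damage responses, was at 37.2 CPM (35.6 to 38.9) in control against 50.8 CPM (49.2 to 52.4) in STAT5 KO, a log2 ratio of 0.45 (0.37 to 0.53). Clspn, which carries the signal of stalled forks to the kinase CHK1, was at 0.30, the helicase Blm and the chromatin ATPase Atad2 at 0.27 each, Rad51ap1 at 0.15 and the ubiquitin ligase adaptor Dtl at 0.09. Tipin, a partner of the fork protein Timeless, was on the other side at -0.09, and at 0.06 after thinning.

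Chromatin and histone supply held most of the called members, and their products are tied to DNA methylation or histones. Hells, a remodeler needed for DNA methylation, was at 82.7 CPM (80.2 to 85.2) in control against 107.6 CPM (105 to 110.0) in STAT5 KO, a log2 ratio of 0.38 (0.33 to 0.43). Cdca7, its partner in remodeling, was at 163 CPM (159.7 to 167) and 209.5 CPM (206 to 213), a log2 ratio of 0.36 (0.32 to 0.40). Uhrf1, which recruits the maintenance methyltransferase to new DNA, was at 108 CPM (105 to 111) and 137 CPM (134 to 139), a log2 ratio of 0.34 (0.29 to 0.38). The 8 called members all lay between 0.33 and 0.45, and whether any of them are regulated together was not tested. Nasp, a histone chaperone, was at 136 CPM (133 to 139) and 177 CPM (174 to 179.9), a log2 ratio of 0.38 (0.34 to 0.42). Ubr7, a ubiquitin ligase that acts on histones, was at 36.5 CPM (34.8 to 38.2) and 45.9 CPM (44.4 to 47.5), a log2 ratio of 0.33 (0.25 to 0.41).

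The other members of this role were not higher. Slbp, which binds the stem-loop of histone messages, was at 186.5 CPM (183 to 190.3) and 177 CPM (174 to 179.9), a log2 ratio of -0.08 (-0.11 to -0.04), and at 0.01 after thinning. Chaf1b, a subunit of the chromatin assembly factor, was at -0.06 (-0.12 to 0.01). The E-type cyclins, which drive entry into S phase, were the least abundant role at 29.5 CPM in control against 34.95 CPM in STAT5 KO. Ccne2 was at 0.32 (0.21 to 0.43) and Ccne1 at 0.06 (-0.12 to 0.23).

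Share of cells with a UMI followed depth as well as level. At equal depth 41 of 44 members were detected in a larger share of STAT5 KO cells, the exceptions being Rfc2, Dscc1 and Chaf1b, and 35 of 44 were with at most 5% mitochondrial UMIs. Without thinning, 23 of 44 were, in a library of lower depth. How many of all genes were detected in a larger share of STAT5 KO cells was not computed, so these counts are not read as a result about the members. At equal depth the share of cells with a UMI of a member ran from 3.101% for Ccne1 to 63.7% for Dut in control, and from 3.131% to 74.8% for the same genes in STAT5 KO. No set of KLS cells is known to lack these genes, so a background from free RNA was not measured.

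To ask how far members vary together, cells were ranked by the UMIs of the other members, and each member was compared between the top 10% and the lower 50% of cells. All 44 members were higher in the top cells in both libraries, with intervals above 1. The members were listed as genes of S phase, so a shared rise is largely built into the list. The share of all genes higher in the same top cells was not computed. In control the fold ran from 2.16 for Rfc2 to 56.1 for Rrm2, with a median of 5.73. Ccne2 (47.0-fold), Ccne1 (41.1-fold), Ung (22.1-fold), Dscc1 (19.6-fold) and Pclaf (18.6-fold) followed Rrm2. The lower cells of control held only 13 UMIs of Ccne2 and 5 of Ccne1. Their intervals were wide, 26.5 to 90.8 and 16.2 to 133.1, so the order at the top is not firm. In STAT5 KO the median was 3.49, the lowest fold was 1.99 for Ubr7 and the highest 20.7 for Ccne1. That of Ccne1 rested on 16 UMIs in the lower cells (11.8 to 38.2) and lay next to 20.4 for Ccne2. All 44 folds were larger in control, where the lower cells held fewer member UMIs. The order of members was alike, with a Pearson correlation of 0.96 between the log2 folds across the 44 genes, which share cells and depth within a library and are not independent. Across members the log2 ratio between genotypes had a Spearman correlation of 0.14 with this fold and -0.18 with the control CPM. With gene length it was 0.35 over 44 members and 0.06 over 12063 genes.

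Cells were next divided by lineage genes at equal depth: the triad gate (at least 1 UMI each of Hlf, Mecom and Procr, genes of stem cells), the Dntt gate (at least 2 UMIs of a gene of lymphoid priming), the Pf4 gate (at least 2 UMIs of a platelet factor gene of the megakaryocyte lineage) and the Mpo gate (at least 5 UMIs of a gene of granule protein in myeloid cells). The control library held 129, 698, 70 and 326 cells in these gates, and STAT5 KO 116, 1313, 161 and 1436. Triad cells made up 4.21% of control and 1.91% of STAT5 KO cells, and Mpo cells 10.6% and 23.7%, so the mix of cells differed. A further 90 and 534 cells met several gates, and 1751 and 2508 met none. In the STAT5 KO library Stat5a was at 28.5 CPM in the triad gate, 17.2 in the Pf4 gate, 12.4 in no gate, 3.35 in the Mpo gate and 0.847 in the Dntt gate, against 44.4 to 87.1 CPM in the same sets of control. Comparisons in the triad and Pf4 gates and in no gate thus hold more remaining Stat5a transcripts.

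**Figure D4:**
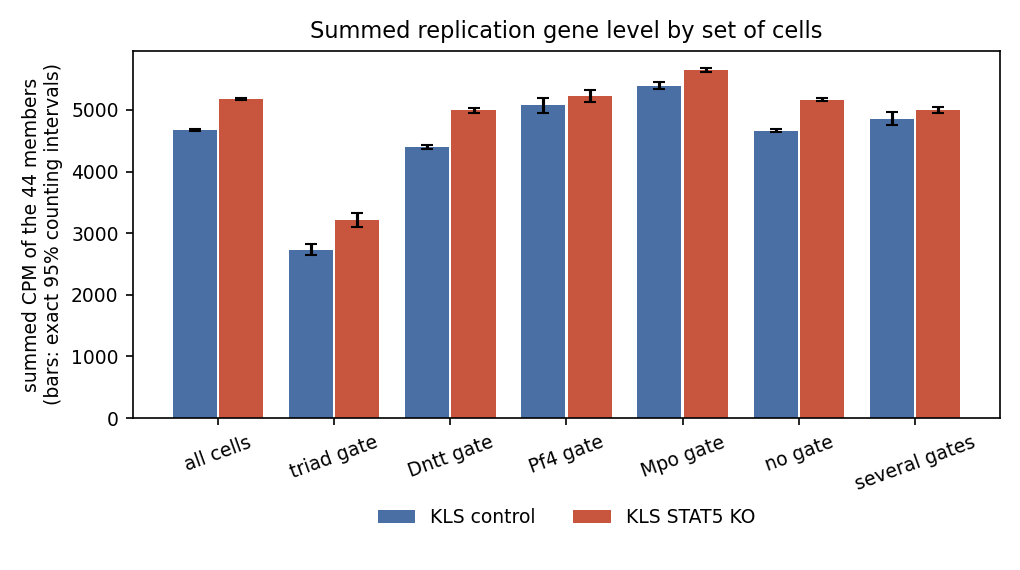
Summed CPM of the 44 members in each set of cells, for KLS control and KLS STAT5 KO, with exact 95% Poisson intervals. Both libraries have their lowest bar in the triad gate and their highest in the Mpo gate.

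Replication genes were lowest in the triad gate and highest in the Mpo gate in both libraries. Their sum was 2726 CPM (2638 to 2816) in triad and 5394 CPM (5341 to 5448) in Mpo cells of control, 1.98-fold apart. In STAT5 KO it was 3213 CPM (3101 to 3327) and 5643 CPM (5611 to 5675), 1.76-fold apart. Of 44 members, 43 were higher in Mpo than in triad cells in each library, 39 with an interval above 1, and the exceptions were Chaf1b in control (0.897-fold) and Ubr7 in STAT5 KO (0.990-fold). Pclaf, for example, stood at 69.1 CPM in triad and 307 CPM in Mpo cells of control. The share of all genes higher in Mpo than in triad cells was not computed, so 43 of 44 is not read as a trait of the members. Counted by how many triad genes a cell held, from 0 to 3, the sum was 5282, 4622, 3793 and 2679 CPM in control against 5518, 5131, 4581 and 3312 CPM in STAT5 KO. It thus decreased with each added triad gene in both libraries. Cells with 3 triad genes are nearly those of the triad gate, so no direction between genotypes is read from them.

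In the triad gate no stable direction between the genotypes was found. The summed log2 ratio was 0.24 (0.17 to 0.31), but it was -0.18 in another random thinning, ran from -0.23 to 0.31 over 20 further thinnings with 14 above 0, was -0.19 under the stricter filter and was -0.06 when gates were read on all UMIs. Median member UMIs per triad cell were 6 in both libraries, and 8 control and 13 STAT5 KO cells were rich. Of 25 members with at least 100 UMIs, 11 were called higher and 2 lower, where 14.1% of 3982 genes were higher and 12.3% lower. Highest were Rrm1 at 84.1 and 135 CPM and Tyms at 66.1 and 102 CPM, and lowest were Chaf1b at 67.6 and 51.9 CPM and Mcm4 at 60.1 and 47.8 CPM. In triad cells erythroid markers summed to 75.9 CPM for control against 17.3 CPM for STAT5 KO, with 5 and 4 of 7 genes detected. Mast and basophil markers, a list that includes Gata2, went the other way, from 172 to 386 CPM, with 3 and 4 of 4 genes detected. Neither sum is split by gene, so neither counts foreign cells. The part of either list was not tested.

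In the Dntt gate the sum was 4399 CPM (4361 to 4438) in control against 4992 CPM (4957 to 5028) in STAT5 KO, a log2 ratio of 0.18, between 0.14 and 0.21 over the 20 thinnings and 0.12 under the stricter filter. Here 12 of 44 members (27.3%) were called higher and 0 lower, where 9.08% of 10073 genes were higher and 8.17% lower. Hells was highest, at 75.6 CPM (70.6 to 80.8) and 107.4 CPM (102 to 113), a log2 ratio of 0.51 (0.39 to 0.63). Pola1 followed at 48.1 and 67.8 CPM, a log2 ratio of 0.50. Lowest were Dscc1 at 18.0 and 15.4 CPM and Gins1 at 22.6 and 21.3 CPM, with intervals across 0.

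In the Pf4 gate the sums were 5073 CPM (4956 to 5192) and 5221 CPM (5122 to 5322), and the log2 ratio of 0.04 (-0.00 to 0.09) included 0, so no difference was detectable at this depth. It ran from -0.07 to 0.15 over the 20 thinnings, with 16 above 0. Of 40 members tested, 7 were called higher and 1 lower, where 14.1% of 5455 genes were higher and 8.74% lower. Highest were Cdc45 at 27.8 and 42.4 CPM and Pold3 at 37.1 and 52.7 CPM, and lowest were Chaf1b at 86.3 and 68.0 CPM and Pclaf at 180.5 and 152 CPM.

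In the Mpo gate the libraries were closest in called members. The sums gave a log2 ratio of 0.07 (0.05 to 0.08), between 0.02 and 0.14 over the thinnings. Only Wdr76 and Cdca7 (2 of 44) were called higher and 0 lower, where 9.24% of 9986 genes were higher and 7.76% lower. Wdr76 was at 39.2 and 53.2 CPM, a log2 ratio of 0.44 (0.25 to 0.64), and Cdca7 at 179 and 236 CPM, a log2 ratio of 0.40. Lowest were Dscc1 at 22.4 and 18.8 CPM and Tipin at 154.7 and 134 CPM. Mast and basophil markers were at 262 and 185.5 CPM in the Mpo gate and at 262.5 and 361 CPM in the Pf4 gate, and erythroid markers at 22.7 and 40.5 CPM in the Dntt gate, and their part was not tested. Whether the ratio differs between gates was not tested, since each gate holds 1 library per genotype.

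Cells in no gate were like the whole, with 4661 CPM (4636 to 4687) and 5164 CPM (5137 to 5191), a log2 ratio of 0.15, and 0.07 under the stricter filter. Here 8 members were called higher and 0 lower, where 7.03% of 11212 genes were higher and 8.1% lower. Wdr76 was again highest, at 37.2 and 51.0 CPM, followed by Ubr7 at 36.8 and 50.4 CPM, and Dscc1 at 21.9 and 17.5 CPM and Tipin at 131 and 119.7 CPM were lowest. Mature B cell markers were lower here in STAT5 KO, at 30.8 and 24.0 CPM, and endothelial markers at 55.3 and 53.1 CPM. Higher were erythroid genes at 223 and 347 CPM and mast and basophil genes at 177 and 249.6 CPM. The sum of Jchain, Igha and Ighm, listed for plasma cells, was at 135.6 and 281 CPM. Ighm is also a marker of lymphoid priming, and this sum was 475 and 403 CPM in the Dntt gate, so it does not count plasma cells. The part of these lists in the ratio was not tested. Cells that met several gates were at 4856 and 4999 CPM. With STAT5 KO gates weighted to the control's shares, the log2 ratio per cell at equal depth was 0.21, against 0.25 unweighted.

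**Figure D5:**
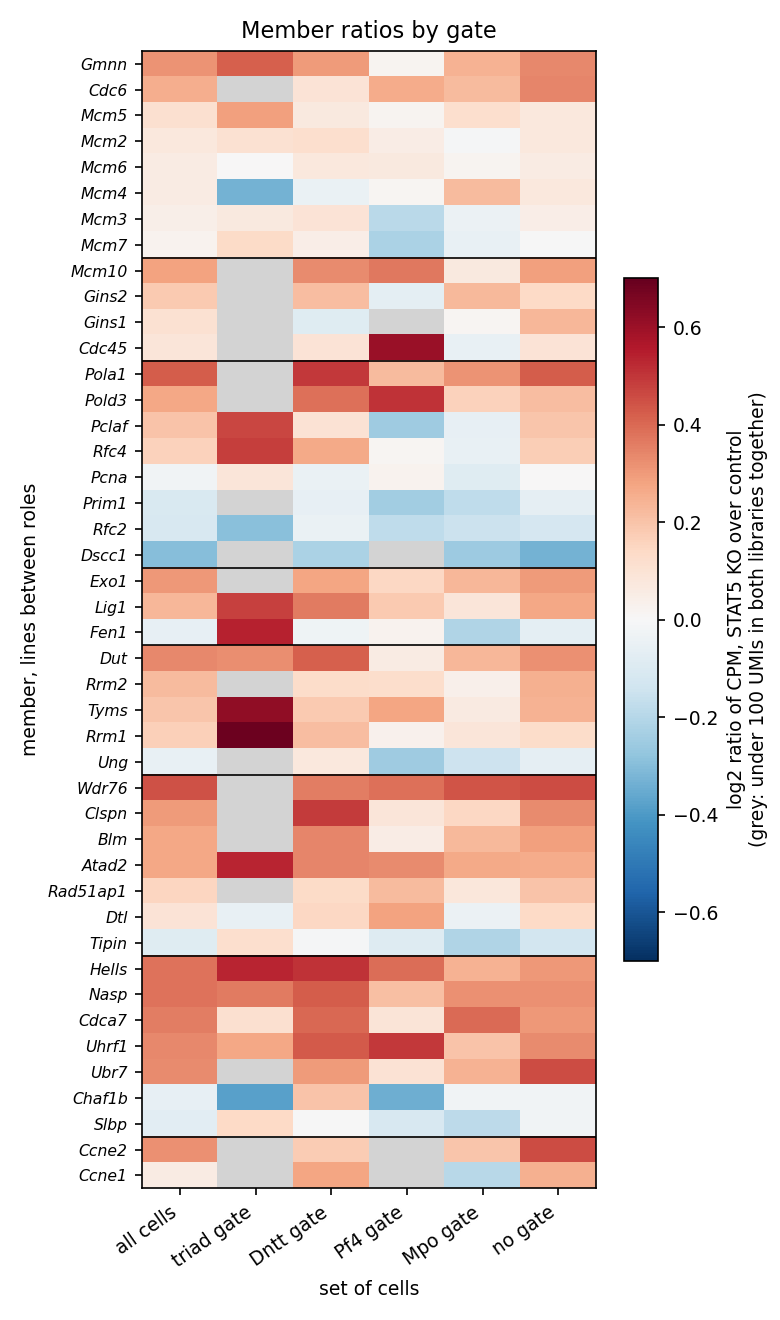
Log2 ratio of CPM, STAT5 KO over control, for each member (rows, grouped by role) in all cells and in 5 sets of cells (columns); grey marks members with under 100 UMIs over both libraries. Wdr76, Hells, Uhrf1 and Atad2 are red in most columns, and Rfc2 is blue in each.

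Across the 5 sets, 25 members had enough UMIs in every set. The ratio of 12 of these was above 1 in all 5 (Atad2, Cdca7, Dut, Gmnn, Hells, Lig1, Mcm5, Mcm6, Nasp, Rrm1, Tyms and Uhrf1), and that of Rfc2 was below 1 in all 5. These 12 are 48% of the members counted, and 27.0% of the 3852 genes with enough UMIs in every set were above 1 in all 5. The triad gate, which turns with the thinning, is among the sets. In the other 4 sets the ratio was above 1 throughout for 23 of 40 members (57.5%) and 34.1% of 5419 genes. Wdr76 was called higher in 4 of the 5 sets and had too few UMIs in the triad gate. Atad2, Hells and Uhrf1 were called in 3.

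Replication genes outside the 44 were read as a fixed list of 35. Of these 2 were called higher and 0 lower, with a median log2 ratio of 0.13, against 0.17 for the members. The 5.71% called higher is near the 5.95% of all genes. The called genes are Orc1, the largest origin recognition subunit (7.58 and 9.78 CPM), and Chtf18, part of the same alternative clamp loader as Dscc1 (14.4 and 19.1 CPM). Orc4 was lowest, at -0.12. Among 13 E2F, DP and pocket protein genes, the activators E2f2 (11.6 and 16.6 CPM) and E2f3 (39.0 and 56.1 CPM) were called higher and 0 lower, with a median of 0.10 (15.4% called higher), while E2f1 stood at 0.11 (0.02 to 0.19).

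Among 15 further genes of nucleotide synthesis, Cad, which starts pyrimidine synthesis, was called higher (45.6 and 64.6 CPM). The p53-inducible reductase subunit Rrm2b (25.9 and 19.4 CPM) and the nucleotide hydrolase Samhd1 (75.2 and 59.8 CPM) were called lower, which makes 6.67% higher and 13.3% lower. Of 8 checkpoint genes, Cdc25a (42.7 and 54.3 CPM) and Cdkn1a (30.6 and 44.9 CPM) were higher and 0 lower (25% higher). Among 18 genes of G2 and mitosis 3 were called higher and 0 lower (16.7% higher), with a median of 0.12. Among 10 G1 cyclins and inhibitors, Ccnd1 was higher (22.6 and 55.0 CPM) and Cdkn1c, an inhibitor of stem cell cycling, lower (11.8 and 6.14 CPM), 10% each way. These lists are short, so a share rests on few genes, and the background stays 5.95% higher and 10.4% lower.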

How the data were processed

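Droplet single-cell RNA-seq was available from 4 libraries, 1 per group, of which both KLS libraries were compared and both stromal libraries served to remove shared barcodes. The authors deposited raw UMI counts per gene and barcode; Cell Ranger 3.1.0 is named per the file headers, and the genome build is GRCm38, also written mm10, per the submitters' processing notes. Aligner settings and cell calling are not given in the sources used here. Coordinates are those of GRCm38.

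Cells were kept with at least 200 genes, at most 10% mitochondrial UMIs and a barcode absent from both stromal libraries; the highest Scrublet scores (scanpy 1.11.5) were left out at 0.8% per 1000 barcodes, since automatic calls marked 0 and 1 barcodes. Counts were summed over cells and scaled to CPM. UMIs of a 3′ library count transcripts, so levels were not divided by length. A pseudocount of 1 CPM was used for calls and none for printed ratios. Intervals are exact Poisson for sums, conditional binomial for ratios and Clopper-Pearson for shares. With 1 library per group no test was made. Ratios and their intervals were tested on simulated sums, and thinning and gates on small made-up data. The simulation held counting error only, so it does not test the intervals against differences between cells. Filters, doublet scores, rich shares and gate weighting were not simulated. Genes with full values are the 8 members highest in control, those at least 1.25-fold apart, and the 2 highest and 2 lowest ratios in each gate, and listed non-members where called or extreme. The members and lists were chosen with earlier results of these data known. Alternatives covered the cell filter, doublets, shared barcodes, scaling (TMM in edgeR), thinning and gates. Whether counting used strand is not stated, so reads of genes that overlap may be shared.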

Additional observations from a re-analysis of the deposited data

Results flagged for a closer look

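Pclaf, the PCNA-binding factor, differed between the genotypes in opposite directions in 3 of the gates, with counting intervals that excluded 0, narrowly in the Pf4 gate. Its log2 ratio was 0.47 (0.039 to 0.900) in the triad gate, 0.10 (0.027 to 0.171) in the Dntt gate and -0.25 (-0.495 to -0.005) in the Pf4 gate, whereas in the Mpo gate it was -0.06 (-0.13 to 0.01), with 307 and 294 CPM. The difference between gates was not tested, since each gate holds 1 library per genotype, and the sums in the triad and Pf4 gates both changed sign over random thinnings.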

How the results depend on the processing

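Depth per cell (medians 15121 and 10082 UMIs), mitochondrial content and the mix of gates differ between the libraries and cannot be told apart from genotype with 1 library each. No paired analysis was possible because each group is 1 library and no test was made. Alternatives by cells of 5000 to 15000 UMIs, gate weighting, the control median, the separate 5% mitochondrial and 1000 gene limits, the 20 thinnings and gates read on all UMIs were chosen after seeing the data, as were those for single members, for nucleotide supply without Dut, for sets without the triad gate and for per-cell values with at most 5% mitochondrial UMIs.

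For all cells the log2 ratio of 0.15 was positive under every alternative run. It was 0.09 under the stricter filter and with at most 5% mitochondrial UMIs, and 0.11 scaled without mitochondrial and ribosomal protein genes. It was 0.13 without Dut, and 0.17 with TMM and as the median over members. As the mean of single-cell CPM it was 0.23, thinned 0.25 and for 5000 to 15000 UMIs 0.63. Weighting of gates was applied to mean member UMIs per cell at equal depth. It gave a log2 ratio of 0.21, against 0.25 for the same measure unweighted. In the triad gate 0.24 became -0.19 under the stricter filter, -0.18 with another thinning and -0.06 with gates read on all UMIs. It became 0.07 with no doublets left out and as the median of 20 thinnings, and 0.14 with lower gates. Thinned and as the cell mean it was 0.32, and with barcodes shared with the stromal libraries kept it was 1.18. The equal depth was set again from the cells kept under each cell filter, so gates there could be read at another depth. The shared barcodes were shallow, at medians of 709 UMIs in control and 663 in STAT5 KO. In every gate, keeping them cannot be told apart from a change of depth. In the Dntt gate 0.18 became 0.12 under the stricter filter and with doublets kept, 0.14 without mitochondrial and ribosomal protein genes, 0.16 without Dut and with lower gates, 0.20 with stromal barcodes kept or gates read on all UMIs, and 0.26 thinned and as the cell mean. In the Pf4 gate 0.04 became -0.04 under the stricter filter, with another thinning and with gates read on all UMIs, -0.16 with stromal barcodes kept and 0.13 at 2000 UMIs. In the Mpo gate 0.07 became 0.05 with doublets kept, 0.09 with stromal barcodes kept, 0.03 without mitochondrial and ribosomal protein genes, 0.04 thinned and with another thinning, 0.16 with higher gates and 0.13 at 2000 UMIs. In no gate 0.15 became 0.07 under the stricter filter, 0.16 with doublets kept, with another thinning and with gates read on all UMIs, 0.11 without mitochondrial and ribosomal protein genes, 0.24 thinned and as the cell mean, 0.20 as the median over members, 0.13 without Dut and at 2000 UMIs, and 0.09 with lower gates.

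The 8 members called higher became 2 under the stricter filter, 5 without mitochondrial and ribosomal protein genes, and 19 thinned and as the cell mean. They became 25 at 1.1-fold and 0 at 1.5-fold. The 0 called lower became 1 under the stricter filter and 1 at 1.1-fold. Shares of all genes called were computed for the main setting only, so these counts are not read as a result about the members. The rich share difference of 4.94 points became 0.34 under the stricter filter, 1.18 with at most 5% mitochondrial UMIs, 2.91 with doublets kept, 8.59, 0.99 and 16.88 at the 70th percentile, 90th percentile and median of control, and 25.57 for 5000 to 15000 UMIs. Of single members, Prim1 turned to 0.01 (cell mean) and 0.16 (thinned), Fen1 to 0.04 and 0.02, Tipin to 0.06 (thinned) and Slbp to 0.01 (thinned). The causes were not tested.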
